A study of Homo sapiens and Mus musculus with 36 samples.

Results

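MS7126 and MS8815 are named by the study as EZH2 PROTACs, and they were compared here across 3 cell lines of 2 species by the RNA they left higher or lower over DMSO. The members were the 12 libraries, of 36 in the series, that carry MS7126 or its DMSO in HepG2 and Huh7, and MS8815 or its DMSO in WEHI-231, with 2 libraries in each of 6 groups. HepG2 and Huh7 are established human liver cancer lines that make plasma proteins, and WEHI-231 is an established mouse B lymphoma line. HepG2 received DMSO or MS7126 at 5 uM for 48 h, Huh7 received DMSO or MS7126 at 5 uM for 24 h by its own label (a label of the WEHI-231 libraries gives 48 h for Huh7), and WEHI-231 received DMSO or MS8815 at 1 uM for 16 h in medium with added 2-mercaptoethanol. No group carried a genetic change. Whether a group's 2 libraries were grown as separate cultures is not in the labels, so each p-value reflects only the spread between these libraries, which may be technical.

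Genes were joined by symbol after upper-casing, which matches names and does not prove orthology. Of 27792 symbols in any of the 3 deposited tables, 9624 stood in all 3, and 8672 had a mean normalised level of at least 10 in each; these are the common genes below. A gene was called higher or lower where the authors' deposited adjusted p was under 0.05. Compound, dose, time, cell line and species all differed between the liver and the B-cell comparisons, so their parts in a difference cannot be told apart, and a difference between the 3 comparisons was not tested. Values are therefore set side by side. Group levels are mean normalised levels rebuilt from the authors' mean and fold change, and values per library were not analysed here.

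EZH2 is the enzyme of Polycomb repressive complex 2, which places trimethyl marks on lysine 27 of histone H3 and keeps many genes silent. A PROTAC is a molecule that binds its target and an E3 ubiquitin ligase at once, so that the target is ubiquitinated and destroyed by the proteasome, whereas an enzymatic inhibitor leaves the protein in place. SREBP2 is the membrane-bound factor that switches on the cholesterol synthesis genes when sterols are scarce, and ATF4 is the factor that switches on amino acid synthesis, amino acid transport and tRNA charging genes when translation initiation is restrained by phosphorylation of eIF2.

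The tables carried the markers of the labelled cells. All 22 hepatocyte markers were in the HepG2 and Huh7 tables, led by APOA1 and ALB, and 4 of 22 were in the WEHI-231 table, where ALB, APOA1 and APOB were not listed. Of 22 B-cell markers, 21 were in the WEHI-231 table, led by CD74 and CD79A, and RAG1 was not listed there; 16 and 9 were in the HepG2 and Huh7 tables, where CD79B and MS4A1 were not listed. The summed level of B-cell markers in WEHI-231 was 265149 in DMSO and 253949 under MS8815, with 6 of 21 called lower and 2 higher. The summed level of hepatocyte markers went from 354347 to 199393 in HepG2, with 13 of 22 lower and 2 higher. In Huh7 it went from 824220 to 501359, with 16 of 22 lower and 0 higher. Few of these markers are common genes. Over all common genes 7.86%, 20.8% and 12.0% were lower and 8.07%, 22.5% and 5.09% higher in HepG2, Huh7 and WEHI-231. Marker lists of T cells, myeloid cells and stroma summed to at most 1344 in any group. The B-cell markers summed to 3364 in DMSO and 1917 under MS7126 in HepG2, led by CD74, with 1 called lower. Among them IRF8, SYK and BTK had standard errors near 4.6 on the log2 scale in HepG2. Summed means over all genes were 16788277, 20947170 and 22702602 in the HepG2, Huh7 and WEHI-231 tables, and the median standard error over the common genes was 0.27, 0.18 and 0.14 on the log2 scale, so WEHI-231 allowed the smallest changes to be called. Fewer cells of a kind and less RNA per cell cannot be told apart in such bulk libraries.

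The RNA of EZH2 itself was called lower in Huh7 and WEHI-231 and not in HepG2; its protein was not analysed here. EZH2 (GRCh38.p14, chr7:148807383-148884291) had rebuilt levels of 275 in DMSO and 226 under MS7126 in HepG2, of 1790 and 1305 in Huh7, and of 3655 and 3094 in WEHI-231. In the authors' deposited tables the log2 fold change was -0.29 (SE 0.27, not called) in HepG2, -0.46 (SE 0.13, adjusted p 0.0019) in Huh7 and -0.24 (SE 0.07, adjusted p 0.0065) in WEHI-231. Of 12 measured PRC2 subunits, 1, 5 and 4 were lower and 2, 1 and 0 higher in HepG2, Huh7 and WEHI-231. Over all common genes 7.86%, 20.8% and 12.0% were lower and 8.07%, 22.5% and 5.09% higher, so the 1 lower in HepG2 is near its background. RBBP4, a histone chaperone of the complex, was the 1 subunit called lower in all 3, as were 136 of the 8672 common genes. SUZ12, the scaffold subunit, fell in Huh7 and WEHI-231, with log2 fold changes of -0.40 (SE 0.15) and -0.29 (SE 0.08) in the authors' deposited tables, and had -0.27 (SE 0.21) in HepG2. LCOR, whose locus also encodes the PRC2 accessory protein PALI1, rose in both liver lines, by 1.21 (SE 0.28) and 1.88 (SE 0.16) on the log2 scale, and had 0.06 (SE 0.16) in WEHI-231 in the authors' deposited tables.

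Genes known as silenced by EZH2 were few among the common genes. Of 22 listed genes known as silenced by EZH2, 8 were measured in all 3 tables, and 2, 2 and 1 of these were called higher and 0, 2 and 0 lower in HepG2, Huh7 and WEHI-231. Over all common genes 8.07%, 22.5% and 5.09% were higher and 7.86%, 20.8% and 12.0% lower, so 2 of 8 each way in Huh7 is near its background. TXNIP, which binds thioredoxin and curbs glucose uptake, was the 1 called higher in all 3: its log2 fold changes by the authors' deposited tables were 1.96 (SE 0.27), 4.21 (SE 0.21) and 0.38 (SE 0.13). RASSF1, a tumour suppressor gene, rose in both liver lines by 1.52 (SE 0.46) and 1.77 (SE 0.20) and had 0.26 (SE 0.22) in WEHI-231 in the authors' deposited tables. Among listed genes outside the common genes, IGFBP3 was higher in HepG2 and Huh7, at 3.99 (SE 0.67) and 1.10 (SE 0.14) there. CDKN2B (2.35, SE 0.18), DLC1 and TNFRSF21 were higher in Huh7. TIMP3 was lower in HepG2 and Huh7, at -0.92 (SE 0.18) and -1.19 (SE 0.20), as were CDH1 in Huh7 and RUNX3 in WEHI-231.

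Among the common genes, the HepG2 table called 700 higher and 682 lower (8.07% and 7.86%), the Huh7 table called 1949 higher and 1804 lower (22.5% and 20.8%), and the WEHI-231 table called 441 higher and 1043 lower (5.09% and 12.0%). The WEHI-231 calls were mostly lower: 29.7% of them were higher as deposited and 40.2% after centring on the median of the common genes. They were also small, and with a change of at least 2-fold required as well, 70 genes were higher and 27 lower there. The median log2 fold change of all common genes was 0.04, 0.01 and -0.03 in HepG2, Huh7 and WEHI-231.

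The counts of shared genes were highest between the liver lines. Higher in both liver lines were 428 genes, 61.1% of the HepG2 calls and 22% of the Huh7 calls, and lower in both were 457 genes, 67% and 25.3% of those calls. HepG2 and WEHI-231 shared 83 higher genes (11.9% and 18.8% of the calls of each) and 177 lower genes (26% and 17%). Huh7 and WEHI-231 shared 148 higher genes (7.59% and 33.6%) and 359 lower genes (19.9% and 34.4%). Of the HepG2 calls, 88 higher genes (12.6%) were lower in WEHI-231 and 32 lower genes (4.69%) were higher there. Of the Huh7 calls these were 193 (9.9%) and 89 (4.93%). Over all common genes, 5.09% were higher and 12.0% lower in WEHI-231. Between the liver lines, 21 higher (3%) and 18 lower (2.64%) HepG2 genes were called the opposite way in Huh7. Across the 8672 genes, Pearson's r of the log2 fold changes was 0.46 for HepG2 with Huh7, 0.08 for HepG2 with WEHI-231 and 0.06 for Huh7 with WEHI-231. These are descriptions across genes, which are not independent replicates, and no 2 of these comparisons share a library.

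The genes called one way in both liver lines divided unequally in WEHI-231. Of the 428 higher in both, 63 (14.7%) were also higher in WEHI-231, 55 (12.9%) were lower there and 310 (72.4%) were not called. Of the 457 lower in both, 136 (29.8%) were also lower in WEHI-231, 20 (4.38%) were higher and 301 (65.9%) were not called. The WEHI-231 background stood at 5.09% higher and 12.0% lower over all common genes. The opposite shares, 12.9% lower and 4.38% higher, are near that background, so these counts are no result about an opposite response. Without the lists for cholesterol and fatty acid synthesis, DNA replication, mitosis, ATF4 targets and tRNA synthetases, 23.6% of the remaining genes lower in both liver lines were also lower in WEHI-231, against 11.3% of all remaining genes. The same removal left 11.2% of the genes higher in both liver lines also higher in WEHI-231, against 4.9%.

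**Figure D1:**
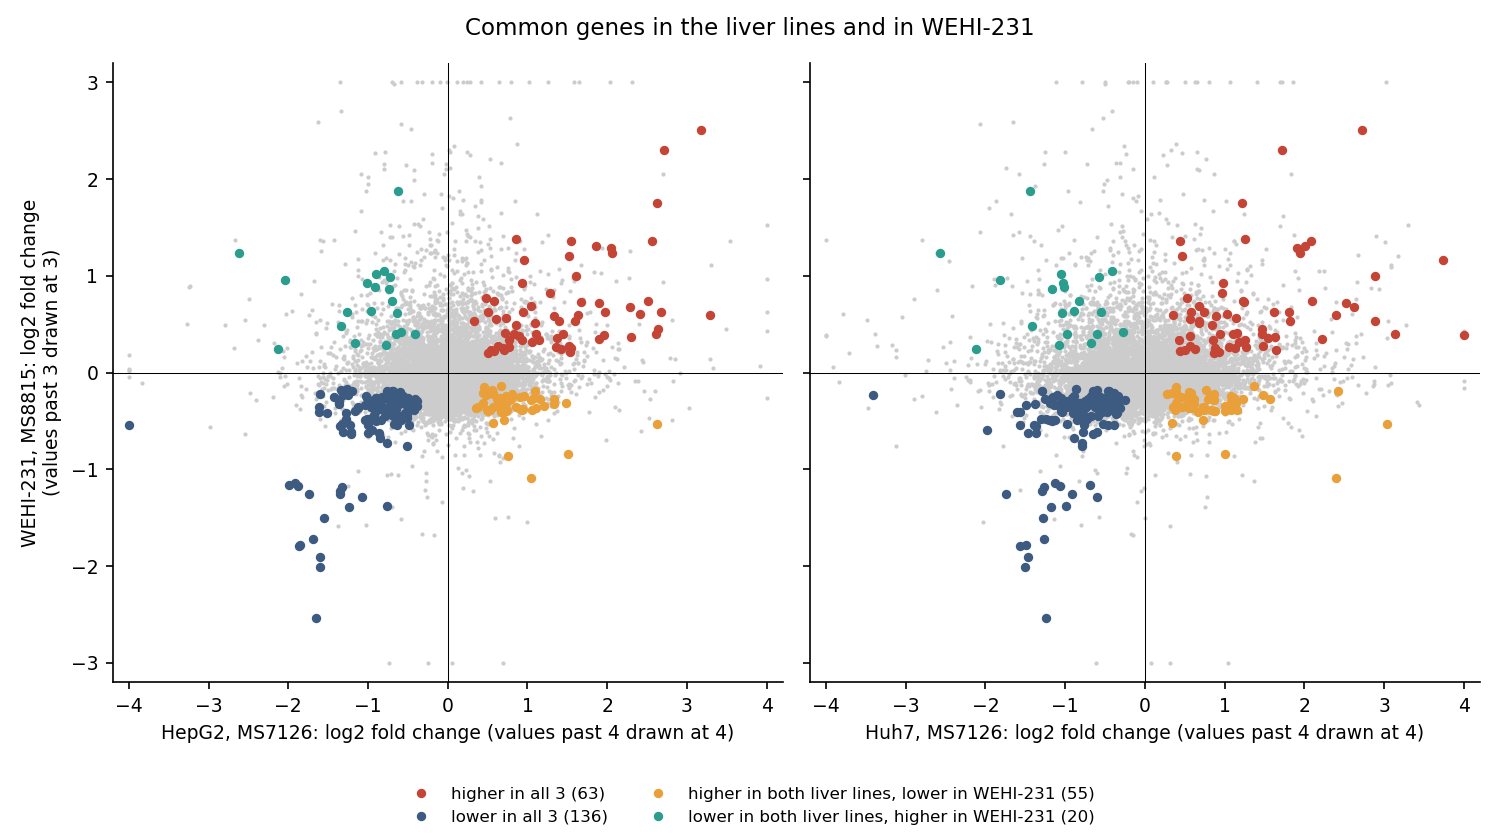
Each point is 1 common gene; the horizontal axis is the log2 fold change under MS7126 in HepG2 (left) or Huh7 (right) and the vertical axis that under MS8815 in WEHI-231, with far values drawn at the axis limit as labelled. Colours mark the 63 genes higher in all 3, the 136 lower in all 3, the 55 higher in both liver lines and lower in WEHI-231, and the 20 with the reverse pattern. The lower-left arm below -1 in WEHI-231 holds cholesterol synthesis genes and FADS2.

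The cholesterol synthesis pathway fell in all 3 comparisons. Of 22 listed genes 21 were common, and 18, 20 and 19 of them were lower in HepG2, Huh7 and WEHI-231 with 0 higher in any, against 7.86%, 20.8% and 12.0% lower over all common genes. The median log2 fold change of the 21 genes was -1.35, -1.18 and -1.25, and 17 were lower in all 3. GGPS1, which makes geranylgeranyl diphosphate off the sterol branch, was the 1 member called in none, with 0.29 (SE 0.24), 0.28 (SE 0.15) and -0.01 (SE 0.18) in the authors' deposited tables. Beside these counts stand the lower hepatocyte markers of both liver lines, whose part in the result was not tested.

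The first steps build mevalonate. HMGCS1, the HMG-CoA synthase, had rebuilt levels of 733 in DMSO and 201 under MS7126 in HepG2, of 17488 and 5879 in Huh7, and of 7617 and 2199 in WEHI-231. It was at about the same log2 fold change in the authors' deposited tables of all 3 lines, at -1.86 (SE 0.24), -1.57 (SE 0.15) and -1.79 (SE 0.07). MVK, the mevalonate kinase, had -1.75 (SE 0.26), -1.75 (SE 0.15) and -1.25 (SE 0.18) in the authors' deposited tables. PMVK, the next kinase, was called in Huh7 and WEHI-231, at -0.79 (SE 0.22) and -0.87 (SE 0.17), and had -0.33 (SE 0.37) in HepG2 in the authors' deposited tables.

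The isoprenoid and squalene steps followed the same pattern. IDI1, the isopentenyl diphosphate isomerase, had -1.69 (SE 0.26), -1.26 (SE 0.12) and -1.72 (SE 0.06) in HepG2, Huh7 and WEHI-231 in the authors' deposited tables. FDPS, the farnesyl diphosphate synthase, had -1.55 (SE 0.18), -1.28 (SE 0.12) and -1.51 (SE 0.07) in the authors' deposited tables. FDFT1, the squalene synthase that commits the pathway to sterols, had -1.60 (SE 0.17), -1.51 (SE 0.10) and -2.00 (SE 0.10) there. At the ring closure step the 3 lines lay further apart. LSS, the lanosterol synthase, went from a rebuilt level of 893 to 285 in HepG2, from 5724 to 2427 in Huh7 and from 2527 to 435 in WEHI-231. Its log2 fold change in the authors' deposited tables was -1.65 (SE 0.34), -1.24 (SE 0.17) and -2.54 (SE 0.11), so that WEHI-231 stood below both liver lines by more than these standard errors; the difference was not tested.

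After lanosterol, MSMO1, the methylsterol oxidase, had -1.86 (SE 0.21), -1.49 (SE 0.11) and -1.78 (SE 0.10) in the authors' deposited tables. DHCR7, the reductase of the last step to cholesterol, had -1.32 (SE 0.14), -1.27 (SE 0.12) and -1.18 (SE 0.12) in the authors' deposited tables, close to each other beside these errors. EBP, the sterol isomerase, stood apart: it fell in HepG2 and Huh7, with -1.15 (SE 0.23) and -1.29 (SE 0.16), and had -0.22 (SE 0.14, not called) in WEHI-231 in the authors' deposited tables. The lanosterol demethylase goes by different symbols in the 2 species and so was outside the common genes. CYP51A1 had -1.14 (SE 0.17) and -0.71 (SE 0.11) in HepG2 and Huh7, and the mouse Cyp51 had -1.50 (SE 0.07) in WEHI-231, in the authors' deposited tables.

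**Figure D2:**
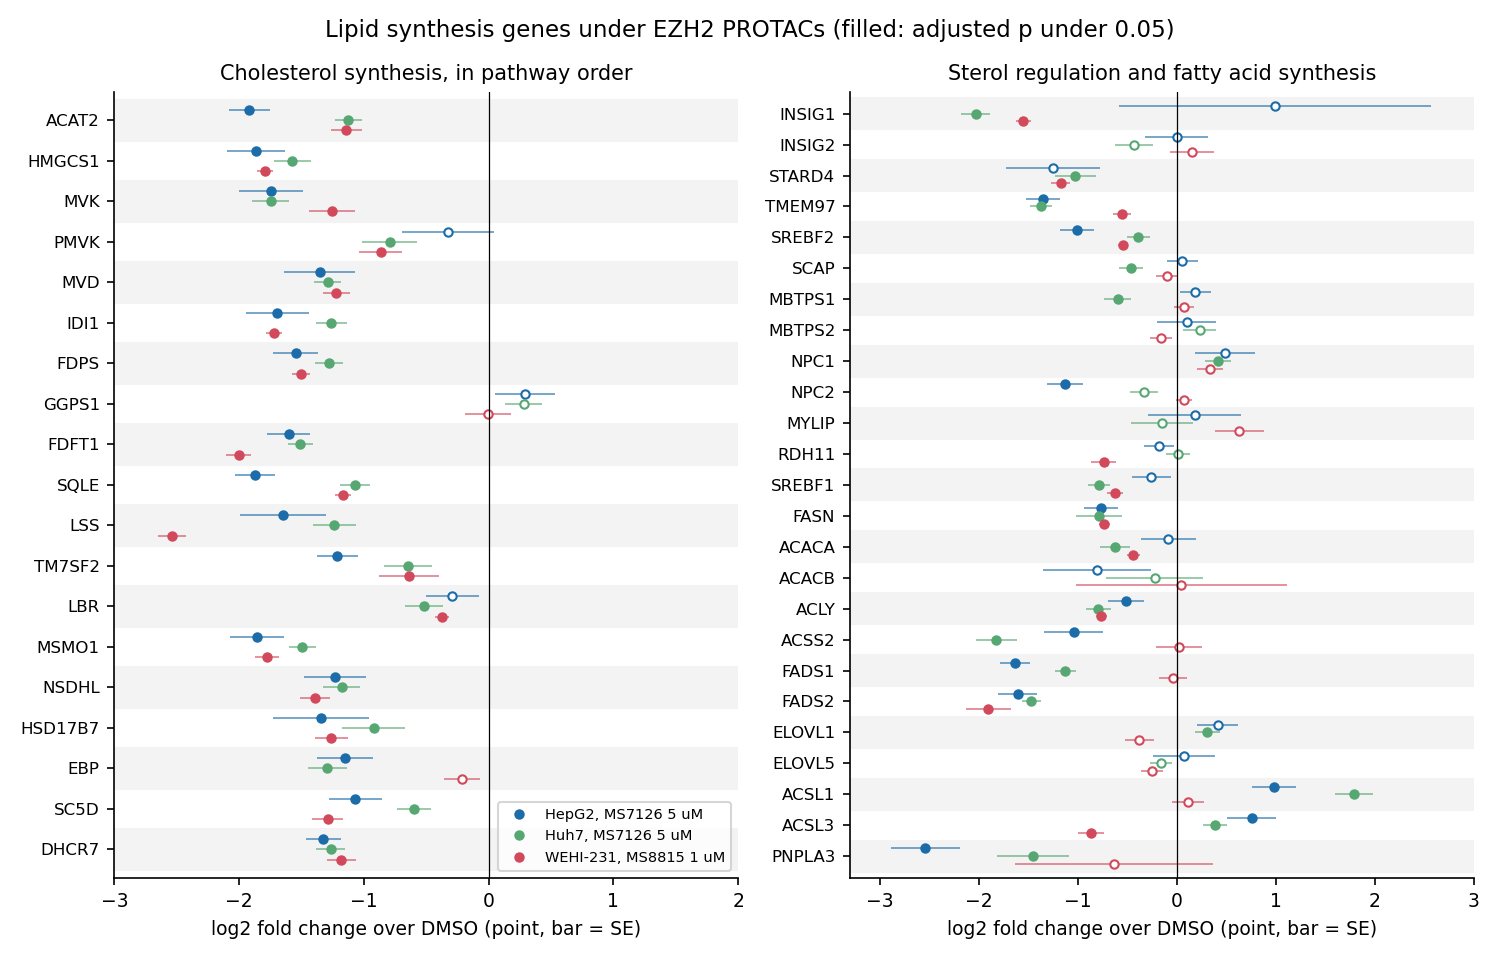
Log2 fold change over DMSO (points, horizontal axis) with its standard error (bars) for cholesterol synthesis genes in pathway order (left) and for sterol regulation and fatty acid synthesis genes (right), in HepG2 and Huh7 under MS7126 and in WEHI-231 under MS8815; filled points have an adjusted p under 0.05, and not every list member is drawn. In the left panel the points of HMGCS1, MVK, IDI1, FDPS, FDFT1, LSS, MSMO1 and DHCR7 are filled and lie below -1 in each line.

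Promoters of 4 of these genes are shown because the family shares 1 short motif there. The windows come from the RefSeq promoter table (GRCh38.p14), which holds the 250 bases before to 50 after each start and matched 16 of the 21 genes; mouse promoters were not used here. Letters in capitals mark the CCAAT box or its reverse complement ATTGG, bound by NF-Y, a factor known to act beside SREBP. The windows are upstream of the transcript start: HMGCS1 at chr5:43313468-43313552 (minus strand), FDPS at chr1:155308775-155308859 (plus strand), LSS at chr21:46228880-46228964 (minus strand) and DHCR7 at chr11:71448397-71448481 (minus strand), each read 5′ to 3′ on the gene's strand.
HMGCS1: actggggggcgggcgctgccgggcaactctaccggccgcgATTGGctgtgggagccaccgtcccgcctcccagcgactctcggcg
FDPS: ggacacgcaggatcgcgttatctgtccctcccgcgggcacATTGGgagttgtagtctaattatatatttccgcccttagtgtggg
LSS: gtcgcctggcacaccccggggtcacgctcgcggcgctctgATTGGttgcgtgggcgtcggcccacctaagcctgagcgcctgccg
DHCR7: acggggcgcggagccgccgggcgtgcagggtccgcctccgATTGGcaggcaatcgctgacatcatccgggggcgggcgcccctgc
The motif CCAAT, searched on both strands, was in the promoters of 14 of the 16 matched genes (87.5%), against 39.7% of all 27305 genes in the table and 44% of the common genes. Among these 14 were GGPS1, not called in any line, and EBP, not called in WEHI-231. It was also in 19 of 23 mitosis genes, 20 of 33 DNA replication genes, 15 of 22 ATF4 target genes and 2 of 21 respiratory chain genes. The longer sterol regulatory element TCACNCCAC was in 1.13% of the 35116 windows and in 0 of the 16 cholesterol genes, which says only that these letters are not in these windows. A match is a description of sequence and not a bound site. Over the 3140 common genes with CCAAT, 9.9%, 23.2% and 13.1% were lower in HepG2, Huh7 and WEHI-231, against 6.66%, 18.6% and 11.4% of the 3994 without it.

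The regulators and uptake genes around the pathway were less uniform. SREBF2, which encodes SREBP2, fell in all 3, with log2 fold changes of -1.01 (SE 0.17), -0.39 (SE 0.12) and -0.55 (SE 0.05) in the authors' deposited tables. TMEM97, a sterol-regulated binding partner of NPC1, also fell in all 3, at -1.35 (SE 0.17), -1.37 (SE 0.11) and -0.55 (SE 0.09) in the authors' deposited tables. INSIG1, which holds SREBP in the endoplasmic reticulum and is itself an SREBP target, fell in Huh7 and WEHI-231 by 2.03 (SE 0.15) and 1.55 (SE 0.08) on the log2 scale, and had 0.99 with a standard error of 1.58 in HepG2, in the authors' deposited tables. SCAP and MBTPS1, the escort and the protease of SREBP, were lower in Huh7 and were not called in HepG2 or WEHI-231. Over this list of 13 measured genes 4, 6 and 6 were lower, against 7.86%, 20.8% and 12.0% of all common genes. Higher were 0, 2 and 0, against 8.07%, 22.5% and 5.09%, so the 2 in Huh7 are below the background there.

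Fatty acid genes split by step. Of 14 measured genes, 6, 8 and 6 were lower and 2, 3 and 0 higher in HepG2, Huh7 and WEHI-231, and FADS2, FASN and ACLY were lower in all 3. Over all common genes 7.86%, 20.8% and 12.0% were lower and 8.07%, 22.5% and 5.09% higher, so the 3 higher in Huh7 are near the background there. FADS2, the delta-6 desaturase, went from a rebuilt level of 874 to 287 in HepG2, from 24030 to 8689 in Huh7 and from 411 to 110 in WEHI-231. FASN, the fatty acid synthase, stood at -0.76 (SE 0.17), -0.78 (SE 0.23) and -0.73 (SE 0.06) in the authors' deposited tables, the same size within error. FADS1, the neighbouring desaturase, was called lower in the liver lines alone, with -1.63 (SE 0.15) and -1.12 (SE 0.10) against -0.04 (SE 0.14) in WEHI-231 in the authors' deposited tables. ACSL3, which activates long-chain fatty acids, was higher in both liver lines (0.76, SE 0.25, and 0.39, SE 0.12) and lower in WEHI-231 (-0.87, SE 0.13) in the authors' deposited tables. ABCA1, the transporter that exports cholesterol, did the reverse, with -0.91 (SE 0.24), -1.01 (SE 0.22) and 0.88 (SE 0.12) there.

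ATF4 and its known targets rose in all 3 comparisons, with the lowest median in WEHI-231. Of 32 listed genes 28 were common, and 24, 23 and 20 were higher while 1, 2 and 1 were lower, against 8.07%, 22.5% and 5.09% higher over all common genes. The lower counts are below the 7.86%, 20.8% and 12.0% of all common genes. The median log2 fold change was 1.40, 1.31 and 0.54, and 16 genes were higher in all 3. ATF4 itself had 0.70 (SE 0.12), 1.64 (SE 0.11) and 0.24 (SE 0.06) in the authors' deposited tables. Of the 63 genes higher in all 3, 16 were on this list.

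TRIB3, a pseudokinase that feeds back on ATF4, rose in all 3: its rebuilt level went from 1156 to 7572 in HepG2, from 1361 to 4499 in Huh7 and from 133 to 655 in WEHI-231. The log2 fold changes by the authors' deposited tables were 2.71 (SE 0.14), 1.72 (SE 0.11) and 2.30 (SE 0.19). DDIT3, which encodes the stress factor CHOP, had 2.63 (SE 0.30), 1.22 (SE 0.26) and 1.76 (SE 0.18), and SESN2, an amino acid sensor that restrains mTORC1, had 2.06 (SE 0.21), 1.95 (SE 0.18) and 1.23 (SE 0.12), in the authors' deposited tables. These regulators thus rose more than 2-fold in each line.

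Enzymes and transporters of amino acid supply were less even. CTH, which makes cysteine from cystathionine, had 2.05 (SE 0.36), 1.90 (SE 0.30) and 1.28 (SE 0.16), and SLC6A9, the glycine transporter, had 2.56 (SE 0.26), 2.09 (SE 0.20) and 1.36 (SE 0.23), in the authors' deposited tables. ASNS, the asparagine synthetase, went from a rebuilt level of 622 to 6100 in HepG2, from 1565 to 8214 in Huh7 and from 1060 to 1601 in WEHI-231. Its log2 fold change was 3.29 (SE 0.17), 2.39 (SE 0.15) and 0.59 (SE 0.10) in the authors' deposited tables, called in each and smallest in WEHI-231. MTHFD2, a mitochondrial folate enzyme, rose in all 3, by 1.52 (SE 0.13), 1.48 (SE 0.16) and 0.28 (SE 0.07) in the authors' deposited tables. PSAT1, of serine synthesis, and SHMT2, which moves a carbon from serine to folate, rose in both liver lines, by 0.90 (SE 0.15) and 0.45 (SE 0.11) and by 1.25 (SE 0.15) and 0.79 (SE 0.11), and had 0.05 (SE 0.06) and 0.02 (SE 0.06) in WEHI-231 in the authors' deposited tables. SLC7A1, the transporter of cationic amino acids, had 1.23 (SE 0.17), 2.35 (SE 0.14) and 0.05 (SE 0.06) there. CBS, the cystathionine synthase, turned: it was higher in HepG2 and Huh7 (0.90, SE 0.20, and 0.39, SE 0.12) and lower in WEHI-231 (-0.38, SE 0.10) in the authors' deposited tables.

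Some members rested on low levels or carried no adjusted p. CHAC1, which degrades glutathione, had 3.30 (SE 0.26) in Huh7 and 1.53 (SE 0.19) in WEHI-231 in the authors' deposited tables, both called, and in HepG2 a mean of 12 with no adjusted p. SLC7A11, the cystine importer, was higher in both liver lines and had no adjusted p in WEHI-231 at a mean of 34.6, and NUPR1 likewise at 11.2. ATF5 had standard errors of 0.99 and 0.92 in HepG2 and Huh7 in the authors' deposited tables.

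**Figure D3:**
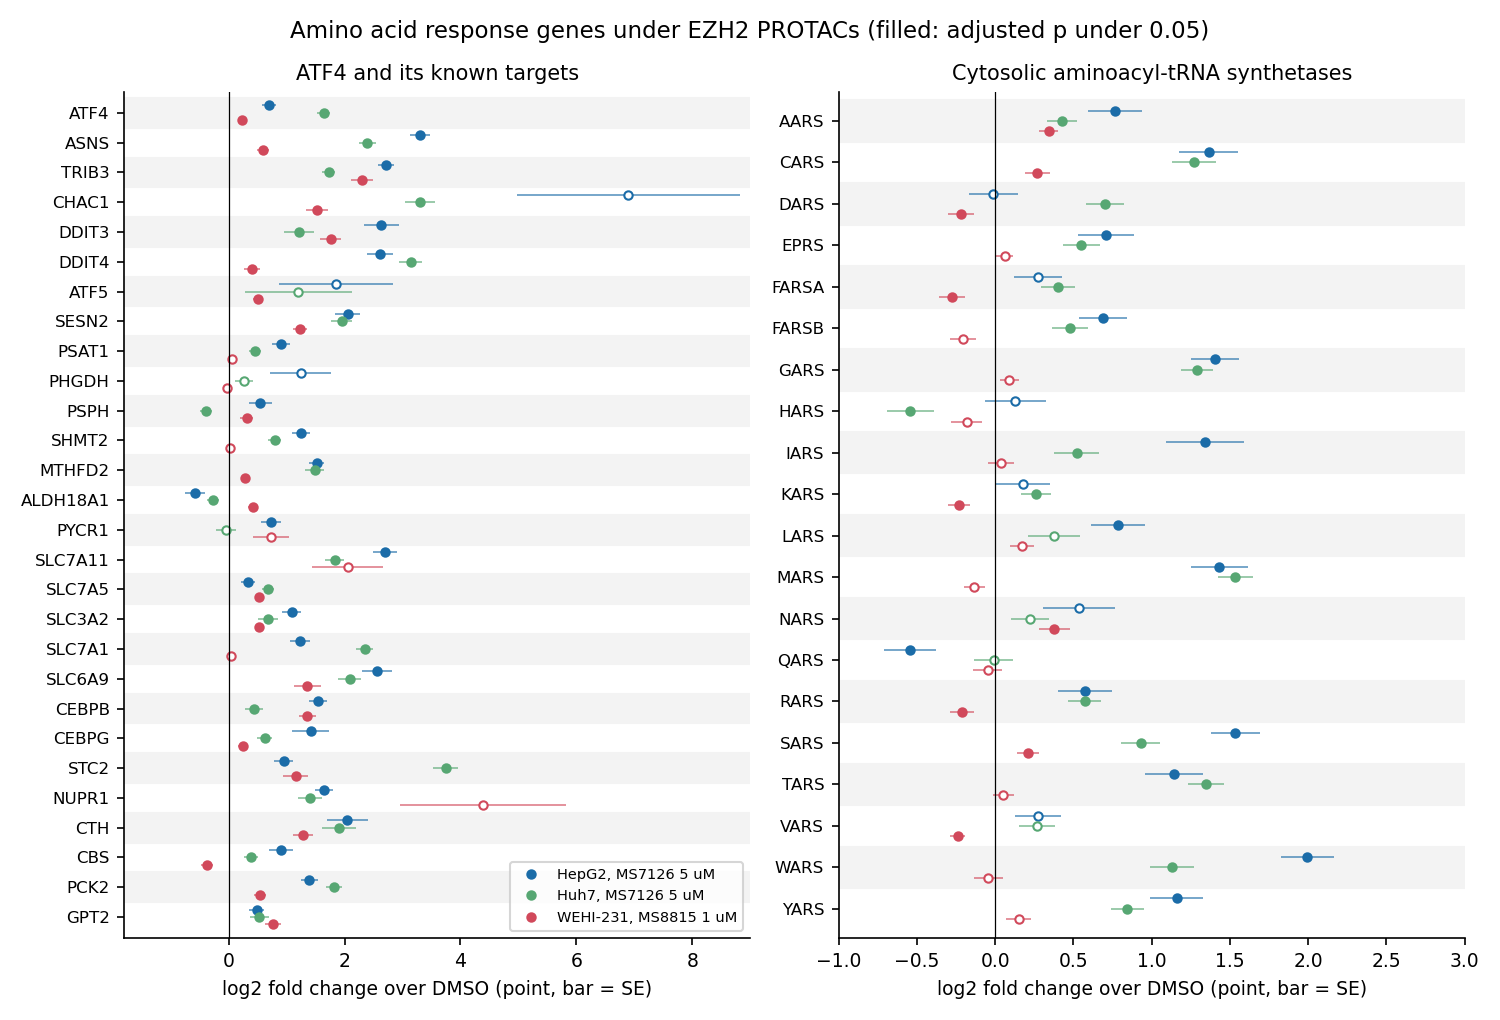
Log2 fold change over DMSO (points, horizontal axis) with its standard error (bars) for ATF4 targets (left) and cytosolic tRNA synthetases (right), in HepG2 and Huh7 under MS7126 and in WEHI-231 under MS8815; filled points have an adjusted p under 0.05. TRIB3, DDIT3, SESN2, CTH and SLC6A9 lie above 1 in each line, while the synthetases have medians of 0.74 and 0.53 in the liver lines and lie between -0.28 and 0.38 in WEHI-231.

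Cytosolic aminoacyl-tRNA synthetases, which charge tRNAs with amino acids and are known ATF4 targets in part, rose in the liver lines and not as a group in WEHI-231. All 20 listed genes were measured; 13, 15 and 4 were higher, against 8.07%, 22.5% and 5.09% of all common genes, and 1, 1 and 5 lower, against 7.86%, 20.8% and 12.0%. The median log2 fold changes were 0.74, 0.53 and 0.00, and in WEHI-231 both the higher and the lower genes stood above their background. AARS, CARS and SARS were higher in all 3, and their WEHI-231 values of 0.34 (SE 0.06), 0.27 (SE 0.08) and 0.21 (SE 0.07) in the authors' deposited tables were below those of the liver lines. WARS, the tryptophan enzyme, had 1.99 (SE 0.17), 1.13 (SE 0.14) and -0.04 (SE 0.09) there. MARS, the methionine enzyme, had 1.43 (SE 0.18), 1.53 (SE 0.11) and -0.13 (SE 0.07) in the authors' deposited tables. RARS, the arginine enzyme, rose in both liver lines and fell in WEHI-231, at 0.57 (SE 0.17), 0.57 (SE 0.11) and -0.21 (SE 0.08) in the authors' deposited tables.

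The promoters of 4 genes of these lists are shown because they carry the C/EBP-ATF composite element, the known binding motif of ATF4. Capitals mark TGATGNAA or its reverse complement. The windows are upstream of the starts of ASNS at chr7:97872429-97872516 (minus strand), CEBPG at chr19:33374031-33374112 (plus strand), AARS1 (AARS in the tables) at chr16:70289646-70289733 (minus strand) and IARS1 (IARS in the tables) at chr9:92293698-92293750 (minus strand), RefSeq, GRCh38.p14, 5′ to 3′ on the gene's strand.
ASNS: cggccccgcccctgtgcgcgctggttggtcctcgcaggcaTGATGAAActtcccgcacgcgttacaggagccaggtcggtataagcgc
CEBPG: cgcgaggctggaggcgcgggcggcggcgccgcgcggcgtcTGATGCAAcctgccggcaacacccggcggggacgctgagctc
AARS1: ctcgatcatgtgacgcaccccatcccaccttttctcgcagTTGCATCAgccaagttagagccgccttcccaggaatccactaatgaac
IARS1: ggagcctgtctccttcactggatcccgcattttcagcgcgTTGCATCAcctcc
The element, searched on both strands, was in the promoters of 5 of 22 matched ATF4 targets and 7 of 16 matched synthetases, against 4.46% of all genes and 2.57% of the common genes. It was in 0 of the matched cholesterol, DNA replication, mitosis, ribosome biogenesis and respiratory chain genes. Of the 7 synthetases with it (AARS, CARS, GARS, IARS, MARS, NARS and TARS), 6 were higher in HepG2, 6 in Huh7 and 3 in WEHI-231, with median log2 fold changes of 1.34, 1.27 and 0.09. Of the 9 matched synthetases without it, 5, 7 and 1 were higher, with medians of 0.57, 0.48 and -0.18. Across the 183 common genes with the element in a human promoter, 13.7%, 28.4% and 10.9% were higher in HepG2, Huh7 and WEHI-231, against 7.83%, 22.3% and 4.59% of the 6951 without it. These shares are descriptions, with no test.

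The DNA replication and mitosis genes that were called were all lower, in each of the 3 lines, with the smaller shares for replication in HepG2 and mitosis in WEHI-231. Of 40 DNA replication genes, all measured, 18, 29 and 29 were lower and 0 higher in HepG2, Huh7 and WEHI-231, against 7.86%, 20.8% and 12.0% lower over all common genes. Their medians were -0.71, -0.79 and -0.41, and 11 were lower in all 3, as were 136 of the 8672 common genes. PCNA, the sliding clamp of the replication fork, had log2 fold changes of -0.99 (SE 0.16), -1.37 (SE 0.12) and -0.63 (SE 0.06) in the authors' deposited tables. MCM3 and MCM5, subunits of the replicative helicase, stood at -0.49 (SE 0.06) and -0.48 (SE 0.06) in WEHI-231, and the other MCM2 to MCM7 subunits lay between -0.47 and -0.52 there, in the authors' deposited tables. In Huh7 these 6 subunits lay between -0.79 and -1.34. In HepG2, MCM3, MCM5 and MCM7 were called lower and MCM2, MCM4 and MCM6 were not.

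Of 28 mitosis genes, 20, 18 and 12 were lower and 0 higher, against the same 7.86%, 20.8% and 12.0%, and 9 were lower in all 3. CDK1, the kinase that starts mitosis, had -1.17 (SE 0.20), -0.56 (SE 0.13) and -0.40 (SE 0.09) in the authors' deposited tables. CENPE and CENPF, kinetochore genes, fell in HepG2 by 1.89 (SE 0.19) and 0.88 (SE 0.26) on the log2 scale and had 0.10 (SE 0.09) and 0.11 (SE 0.08) in WEHI-231 in the authors' deposited tables. E2F2, CENPM, RECQL4 and SKP2 were 4 of the 5 genes with the largest falls among those lower in both liver lines, not called in WEHI-231 and at a mean of at least 100 in all 3 tables. E2F2, an activator of replication genes, had rebuilt levels of 196 and 54 in HepG2, 385 and 73 in Huh7, and 3581 and 3435 in WEHI-231. SKP2, the F-box protein that marks p27 for destruction, had -1.57 (SE 0.24), -1.69 (SE 0.15) and -0.24 (SE 0.12) in the authors' deposited tables. ZWINT, a kinetochore gene, was lower in both liver lines (-0.96, SE 0.23, and -0.89, SE 0.12) and higher in WEHI-231 (0.63, SE 0.09) in the authors' deposited tables.

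Ribosome biogenesis was where the liver lines and WEHI-231 went opposite ways as a list. Of 23 measured genes, 7 and 13 were higher in HepG2 and Huh7 and 0 and 1 lower, against 8.07% and 22.5% higher over all common genes, whereas 0 were higher and 17 lower in WEHI-231, against 12.0% lower. The 0 and 1 lower in the liver lines are below the 7.86% and 20.8% of all common genes. The medians were 0.19, 0.38 and -0.30. WDR43, UTP4 and BYSL, factors of the small ribosomal subunit, were higher in both liver lines and lower in WEHI-231. UTP4 had 0.91 (SE 0.19), 0.82 (SE 0.12) and -0.26 (SE 0.09) in the authors' deposited tables. The split was not complete. FBL, the fibrillarin methyltransferase, had -0.39 (SE 0.16), -0.46 (SE 0.16) and -0.39 (SE 0.06) in the authors' deposited tables, called lower in Huh7 and WEHI-231. RPF2 and GAR1, a 60S assembly factor and an H/ACA snoRNP protein outside this list, were among the 6 genes with the largest changes, at a mean of at least 100, that were higher in both liver lines and lower in WEHI-231, with -0.49 (SE 0.14) and -0.41 (SE 0.12) in WEHI-231 in the authors' deposited tables. Under centring on the median, the genes of this opposite pattern went from 55 to 33.

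Respiratory chain subunits encoded in the nucleus were mostly lower in WEHI-231. Of 27 measured genes 3, 9 and 17 were lower, against 7.86%, 20.8% and 12.0% of all common genes, with medians of -0.10, -0.24 and -0.33. Higher were 1, 1 and 0, below the 8.07%, 22.5% and 5.09% of all common genes. The count of 3 in HepG2 is near its background. ATP5B, the catalytic beta subunit of ATP synthase, had -0.31 (SE 0.18, not called), -0.37 (SE 0.11) and -0.50 (SE 0.04) in the authors' deposited tables. In WEHI-231 the 27 log2 fold changes lay between -0.50 and -0.07. With a change of at least 2-fold required, 0 of these genes were called lower in any of the 3 lines, and 0 of the replication, mitosis and ribosome biogenesis genes were called lower in WEHI-231.

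**Figure D4:**
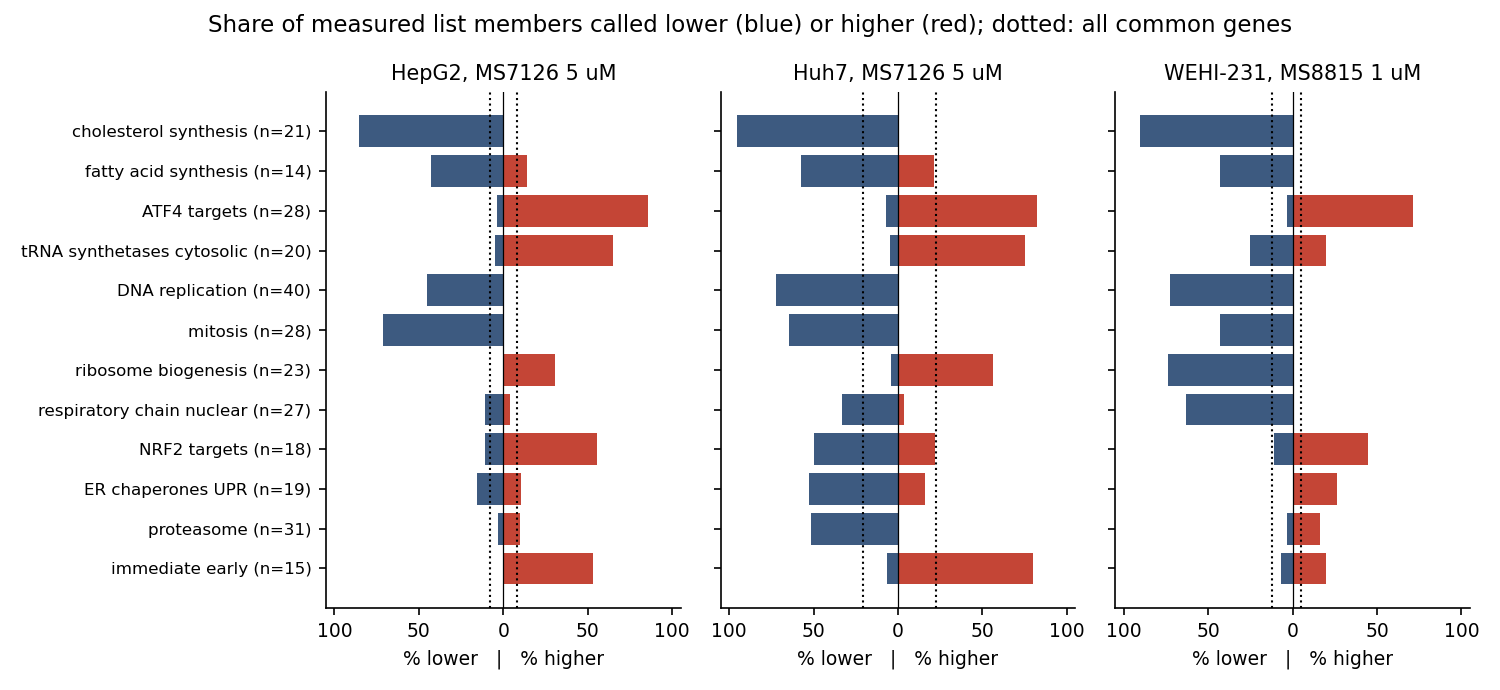
Bars give the percent of the measured members of each list that were called higher (red, to the right) or lower (blue, to the left) in HepG2 and Huh7 under MS7126 and in WEHI-231 under MS8815; dotted lines give the same percent over all common genes. Cholesterol synthesis and DNA replication point left and ATF4 targets right in all 3 panels, while ribosome biogenesis points right in the liver lines and left in WEHI-231.

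Some single genes had the opposite pattern, whose counts over all common genes were near the WEHI-231 background. RIOK3, an atypical kinase of the RIO family, had rebuilt levels of 302 and 624 in HepG2, 857 and 4503 in Huh7, and 181 and 85.2 in WEHI-231. EGR1, an immediate early transcription factor, went from 92.7 to 569 in HepG2 and from 62.0 to 509 in Huh7, and from 3892 to 2687 in WEHI-231. Its log2 fold changes by the authors' deposited tables were 2.62 (SE 0.26), 3.04 (SE 0.30) and -0.53 (SE 0.08). Of 15 measured immediate early genes, 8, 12 and 3 were higher, against 8.07%, 22.5% and 5.09% of all common genes. Lower were 0, 1 and 1, below the 7.86%, 20.8% and 12.0% of all common genes. JUN and IER3 rose in all 3, with 1.29 (SE 0.17), 0.97 (SE 0.11) and 0.83 (SE 0.18) for JUN in the authors' deposited tables. JUNB and DUSP1 rose in both liver lines by 1.94 (SE 0.36) and 1.76 (SE 0.13) and by 1.84 (SE 0.29) and 2.35 (SE 0.11), and had -0.18 (SE 0.07) and 0.42 (SE 0.28) in WEHI-231, in the authors' deposited tables.

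CAT, the peroxisomal catalase, was lower in both liver lines and higher in WEHI-231: its rebuilt level went from 717 to 354 in HepG2, from 2128 to 1040 in Huh7 and from 295 to 562 in WEHI-231. SELENOP, a secreted selenium carrier that liver makes in quantity, had -0.70 (SE 0.18), -0.82 (SE 0.10) and 0.74 (SE 0.15) in the authors' deposited tables. HMOX1, the haem oxygenase, had -0.62 (SE 0.20), -1.44 (SE 0.19) and 1.88 (SE 0.31) there. The NRF2 target list as a whole followed no single order. Of 18 measured genes, 10, 4 and 8 were higher and 2, 9 and 2 lower in HepG2, Huh7 and WEHI-231. Against 8.07%, 22.5% and 5.09% higher and 7.86%, 20.8% and 12.0% lower over all common genes, the 4 higher in Huh7 and the 2 lower in HepG2 and in WEHI-231 are near the background. GCLC, the glutamate-cysteine ligase, was higher in all 3, at 2.51 (SE 0.61), 2.10 (SE 0.64) and 0.74 (SE 0.13) in the authors' deposited tables. NQO1, a quinone reductase, was higher in HepG2 (0.79, SE 0.13) and WEHI-231 (5.09, SE 0.69, at a mean of 61.9) and lower in Huh7 (-0.51, SE 0.16) in the authors' deposited tables.

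The list of ER chaperones and other unfolded protein response genes had 10 of 19 measured genes lower in Huh7, against 20.8% of all common genes. In WEHI-231 it had 5 higher, against 5.09%. The other counts, 3 lower and 2 higher in HepG2, 3 higher in Huh7 and 0 lower in WEHI-231, stood against backgrounds of 7.86% and 8.07%, 22.5% and 12.0%. HSPA5, the main chaperone of the endoplasmic reticulum, had -0.32 (SE 0.14, not called), -0.96 (SE 0.11) and 0.18 (SE 0.05) in the authors' deposited tables. HERPUD1, of ER-associated degradation, was the 1 member higher in all 3, with 1.04 (SE 0.18), 0.68 (SE 0.14) and 0.69 (SE 0.07) in the authors' deposited tables. Among 19 measured p53 targets, 9, 8 and 2 were higher, against 8.07%, 22.5% and 5.09% of all common genes. Lower were 0, 2 and 2, against 7.86%, 20.8% and 12.0%. The counts in WEHI-231 are small and near its background, and the 2 lower in Huh7 are below the background there. PMAIP1, which encodes the BH3 protein NOXA, rose in both liver lines by 2.15 (SE 0.39) and 2.54 (SE 0.26) and had 0.24 (SE 0.12) in WEHI-231, and GADD45A rose in all 3 by 0.86 (SE 0.17), 1.26 (SE 0.21) and 1.38 (SE 0.31), in the authors' deposited tables.

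Some genes were called in WEHI-231 and in neither liver line: 178 of its 441 higher genes (40.4%) and 426 of its 1043 lower genes (40.8%), where 51.4% of all common genes were called in neither liver line. Of the higher ones with a mean of at least 100 in all 3 tables, TUBB2A, a beta tubulin, had the largest change: its rebuilt level went from 158 to 641 in WEHI-231, and its log2 fold change in the authors' deposited tables was 2.02 (SE 0.18), against 0.39 (SE 0.18) and 0.11 (SE 0.13) in HepG2 and Huh7. ZYX, a focal adhesion protein, had 1.78 (SE 0.38) at rebuilt levels of 46.1 and 159, and TRAFD1, a regulator of innate immune signalling, had 1.41 (SE 0.15), in the authors' deposited table for WEHI-231. Of the lower ones, AACS, which activates acetoacetate for lipid synthesis, went from 2190 to 936 in WEHI-231, with -1.23 (SE 0.10) in the authors' deposited table, and had 0.32 (SE 0.24) and -0.05 (SE 0.21) in the liver lines. TFRC, the transferrin receptor, went from 20268 to 12053 there, with -0.75 (SE 0.05) in the authors' deposited table.

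Within a cell line the PROTACs were compared with compounds given at the same dose and time, which the study names as the matched enzymatic inhibitors (C24 for MS7126, EPZ-6438 for MS8815) and non-PROTAC analogs (MS7126N1, MS7126N2 and MS8815N). For each of 5 pairs the difference of the 2 log2 fold changes was tested over all common genes by a normal approximation from the deposited standard errors, with p-values adjusted over all genes and pairs. Under MS7126, 243 genes were higher and 291 lower than under C24 (2.80% and 3.36%), 185 and 238 than under MS7126N1 (2.13% and 2.75%), and 75 and 129 than under MS7126N2 (0.865% and 1.49%). Under MS8815, 116 were higher and 287 lower than under EPZ-6438 (1.34% and 3.31%), and 80 and 217 than under MS8815N (0.923% and 2.50%). The 2 fold changes of a pair share their DMSO libraries; with a correlation of 0.5 for that sharing, the counts were 739 and 764, 637 and 680, 327 and 459, 342 and 868, and 326 and 734.

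Most cholesterol synthesis genes were lower under the PROTACs than under these compounds, with the fewest called against MS7126N2. In HepG2, MS7126 left 18 of 21 lower than C24 did, 17 lower than MS7126N1 and 12 lower than MS7126N2, with median differences of -2.01, -1.39 and -1.08 on the log2 scale. In WEHI-231, 18 were lower under MS8815 than under EPZ-6438 and 18 than under MS8815N, with median differences of -1.28 and -1.35. Over all common genes 3.36%, 2.75% and 1.49% were lower in these HepG2 pairs and 3.31% and 2.50% in the WEHI-231 pairs. The compounds set beside the PROTACs were not alike: the median log2 fold change of the 21 genes over DMSO was 0.45 under C24, 0.04 under MS7126N1 and -0.37 under MS7126N2, and 0.02 and 0.03 under EPZ-6438 and MS8815N. For HMGCS1 the difference between MS7126 and MS7126N2 was -1.23 with a 95% interval from -1.88 to -0.58, and the difference between MS8815 and MS8815N was -1.84 with an interval from -2.02 to -1.66; HMGCS1 was named for its fall under the PROTACs, so these differences are a description with no test.

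ATF4 targets were higher under MS7126 than under C24 for 19 of 27 measured genes (1 lower), than under MS7126N1 for 21 of 27 and than under MS7126N2 for 8 of 28. Under MS8815, 16 of 27 were higher than under EPZ-6438 (1 lower) and 9 of 27 than under MS8815N. With the correlation of 0.5 for the shared DMSO libraries, the counts against MS7126N2 and MS8815N were 14 and 18. The median log2 fold changes over DMSO were 0.23 under C24, -0.02 under MS7126N1, 0.72 under MS7126N2, 0.03 under EPZ-6438 and 0.16 under MS8815N. ASNS had 1.91 (SE 0.18) under MS7126N2 and 3.29 (SE 0.17) under MS7126 in HepG2 in the authors' deposited tables. For EZH2 itself the difference was not called in any of the 5 pairs; its 95% intervals ran from -0.75 to 0.74 against C24, from -0.80 to 0.82 against MS7126N1, from -0.81 to 0.73 against MS7126N2, from -0.37 to 0.02 against EPZ-6438 and from -0.36 to 0.05 against MS8815N. Those intervals leave room for a change of EZH2 RNA in either direction in HepG2. DNA replication genes were lower under the PROTAC for 11, 8 and 8 of 40 genes in the HepG2 pairs and for 13 and 12 in the WEHI-231 pairs; with that correlation the counts were 21, 19, 15, 27 and 27. Of 23 ribosome biogenesis genes, 5, 2 and 0 were higher under MS7126 in the HepG2 pairs. In the WEHI-231 pairs 4 and 6 were lower under MS8815. With that correlation 9, 6 and 1 were higher and 15 and 14 lower. Over all common genes the 5 pairs had 2.80%, 2.13%, 0.865%, 1.34% and 0.923% higher. They had 3.36%, 2.75%, 1.49%, 3.31% and 2.50% lower. With that correlation 739, 637, 327, 342 and 326 of 8665 to 8672 genes were higher and 764, 680, 459, 868 and 734 lower. The 0 and 1 of 23 against MS7126N2 are near those shares, as is the 1 ATF4 target lower than under C24 or EPZ-6438.

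**Figure D5:**
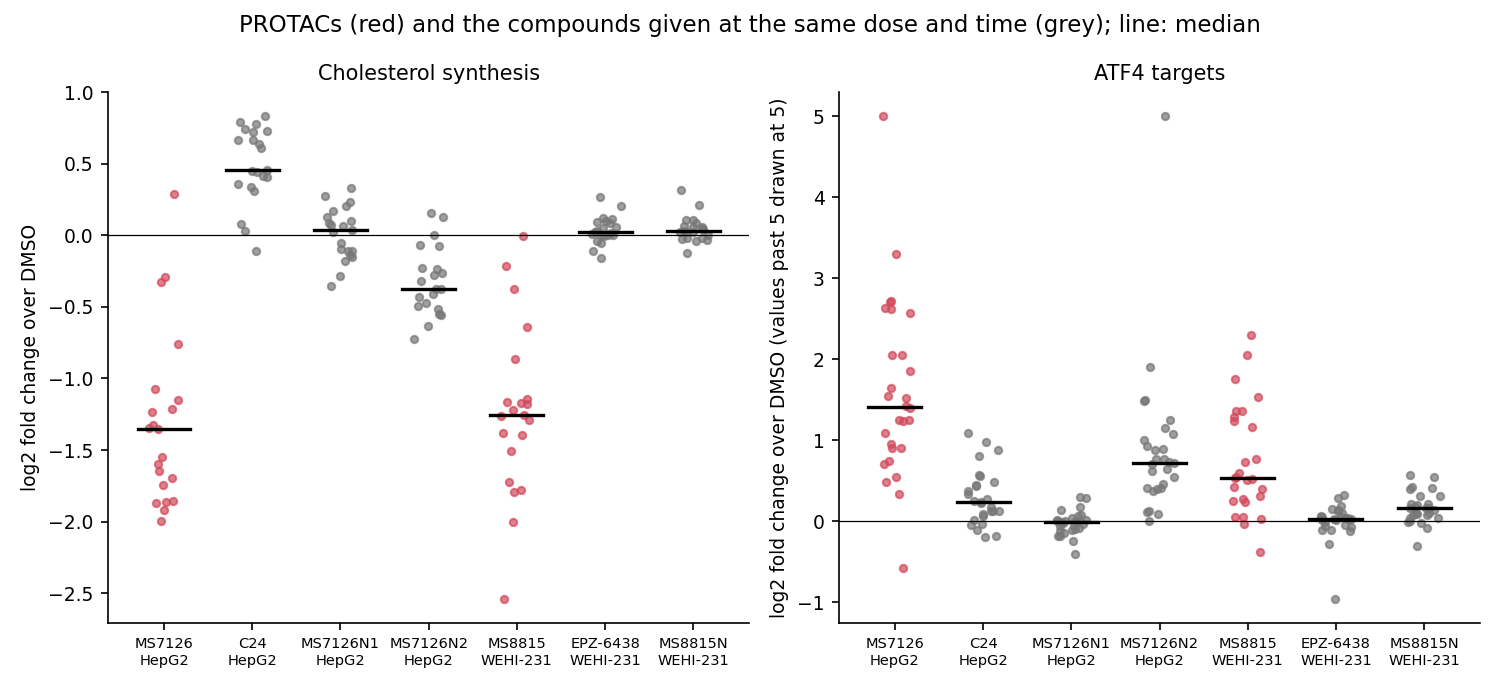
Each point is 1 gene of the cholesterol synthesis list (left) or the ATF4 target list (right); the vertical axis is its log2 fold change over DMSO, and the columns are MS7126 (red) with C24, MS7126N1 and MS7126N2 (grey) in HepG2, and MS8815 (red) with EPZ-6438 and MS8815N (grey) in WEHI-231, with the median as a line. The PROTAC medians are -1.35 and -1.25 in the left panel, where the other medians lie between -0.37 and 0.45.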

How the data were processed

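RNA-seq libraries of HepG2, Huh7 and WEHI-231 were read from the authors' deposited tables, 1 table for each compound over DMSO. Per the submitters' processing notes, STAR 2.4.2 and Salmon were used with GRCh38 and mm10; the step each served, the annotation, the strand setting and the software of the test are not stated in these sources, so overlapping and antisense genes could not be separated. The labels' protocols name 2 library kits without saying which library had which. Per the file headers, each table holds the authors' mean normalised signal over libraries, a log2 fold change and its error, a statistic (a score), and p-values before and after adjustment. The deposited statistic was found to be the ratio of fold change to error, and the deposited adjusted p to be a Benjamini-Hochberg adjustment over 12923, 15956 and 10671 genes in the HepG2, Huh7 and WEHI-231 tables; 191, 0 and 617 common genes carried none and counted as not called.

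Group levels were rebuilt from the mean and the fold change, taking 2 libraries a group. DMSO levels rebuilt from tables that share a cell line agreed for HepG2 and WEHI-231, so these fold changes are treated over control. Huh7 has no such partner here, so the series' description alone sets its direction. Depth per library is unknown from these tables; summed means are in the report. Pair differences used the 2 deposited standard errors, were tested 2-sided against a normal distribution and adjusted over 5 pairs and all genes. The step was run on data simulated with normal errors of those same sizes. That run checks the calculation and cannot show that the normal approximation holds with 2 libraries a group. Promoters came from RefSeq (GRCh38.p14), with 16 of 21 cholesterol, 22 of 28 ATF4 and 16 of 20 synthetase genes matched. Python 3.11.15, pandas 2.3.3, numpy 2.4.6 and scipy 1.17.1 were used.

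The members and the 31 gene lists, 5 of them markers, were chosen with earlier results of these data known. Genes were named, at a mean of at least 100 in all 3 tables, as EZH2, the 10 each way called in all 3 with the largest smallest change, the 6 each way opposite in WEHI-231, the 5 each way called in the liver lines or in WEHI-231 alone, and up to 4 of each list; the other genes were named after their values were seen. Alternatives were a stricter adjusted p, a minimum fold, adjustment over the common genes, other minimum means and centring. Values of some listed genes are not reported here.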

Additional observations from a re-analysis of the deposited data

How the results depend on the processing

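No paired analysis was possible because the deposited tables hold fold changes and no values per library; leaving out each replicate in turn could not be run for the same reason. With an adjusted p under 0.01, HepG2 had 413 higher and 433 lower, WEHI-231 269 higher, both liver lines 243 higher and 279 lower, all 3 lines 33 higher and 84 lower, the opposite patterns 15 and 9, and mitosis in WEHI-231 7 lower. Requiring a change of at least 2-fold as well left 262 higher and 222 lower in HepG2, 579 and 455 in Huh7, 70 and 27 in WEHI-231, 120 and 86 in both liver lines, 8 and 13 in all 3, and 1 in each opposite pattern. The same requirement left cholesterol synthesis with 13 lower in Huh7, ATF4 targets with 15 higher in Huh7 and 8 in WEHI-231, and synthetases with 8, 5 and 0 higher in HepG2, Huh7 and WEHI-231. It left DNA replication with 7, 8 and 0 lower, mitosis with 10, 0 and 0 lower, ribosome biogenesis with 0 and 2 higher in the liver lines and 0 lower in WEHI-231, and the respiratory chain with 0 lower in each line; these list changes in WEHI-231 are small ones. Centring on the median moved the genes higher in both liver lines and lower in WEHI-231 to 33. Adjustment over the common genes, a minimum mean of 50 and no minimum mean kept each count within 1.5 times. Pearson's r for HepG2 with Huh7, HepG2 with WEHI-231 and Huh7 with WEHI-231 was 0.52, 0.12 and 0.091 at a mean of at least 50 and 0.82, 0.33 and 0.23 over genes called in both, and Spearman's rho was 0.51, 0.078 and 0.080. With the shared DMSO libraries taken as a correlation of 0.5, the pair counts (higher and lower) were 739 and 764 against C24, 637 and 680 against MS7126N1, 327 and 459 against MS7126N2, 342 and 868 against EPZ-6438 and 326 and 734 against MS8815N, and ATF4 targets were higher for 14 genes against MS7126N2 and 18 against MS8815N. The removal of whole lists in the report was chosen after seeing the data. Precision is limited by 2 libraries a group, and depth per library is unknown here.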

Other observations

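Of the genes called one way in all 3 comparisons, 35 of the 63 higher and 93 of the 136 lower were on no list. Each of the 31 lists held at most 40 of the 8672 common genes, so most common genes are on no list either. These counts are therefore no result about genes outside the lists. The genes named here were picked after their values were seen, from those on no list with the largest smallest change of the 3. Not every gene of that rank is named. RBM24, RIT1 and H1F0 among the higher and CETN2, AGFG2 and UHRF1 among the lower were passed over. ALDH1L2, a mitochondrial folate enzyme, had log2 fold changes of 3.17 (SE 0.59), 2.72 (SE 0.44) and 2.51 (SE 0.28) in HepG2, Huh7 and WEHI-231 in the authors' deposited tables. PPP1R15A, which brings a phosphatase to eIF2, had 2.28 (SE 0.19), 2.62 (SE 0.14) and 0.68 (SE 0.17), and EIF2AK3, which encodes the eIF2 kinase PERK, had 1.97 (SE 0.72), 0.74 (SE 0.18) and 0.63 (SE 0.13), in the authors' deposited tables. EIF4EBP1, a repressor of cap-dependent translation, had 1.33 (SE 0.13), 0.89 (SE 0.14) and 0.58 (SE 0.10) there. BCAT1, the cytosolic branched-chain aminotransferase, rose by nearly the same amount in each line, at 0.94 (SE 0.15), 0.98 (SE 0.19) and 0.92 (SE 0.15) in the authors' deposited tables. Among the lower genes, SLC25A1, the mitochondrial citrate carrier, had -0.90 (SE 0.14), -1.17 (SE 0.13) and -0.50 (SE 0.10), and IDH1, the cytosolic isocitrate dehydrogenase, had -0.86 (SE 0.15), -1.47 (SE 0.10) and -0.62 (SE 0.17), in the authors' deposited tables. DBI, the acyl-CoA binding protein, had -1.23 (SE 0.15), -0.76 (SE 0.13) and -0.55 (SE 0.16) there. CLSPN, a replication checkpoint mediator, had -1.27 (SE 0.22), -1.18 (SE 0.18) and -0.49 (SE 0.10) in the authors' deposited tables.

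Other lists gave the counts below in HepG2, Huh7 and WEHI-231, where 8.07%, 22.5% and 5.09% of all common genes were higher and 7.86%, 20.8% and 12.0% lower. Most of these lists are short, and a count near those shares, such as 2 of 9 tubulins higher in Huh7, is no result about its list. Of 31 proteasome genes 3, 0 and 5 were higher and 1, 16 and 1 lower. Of 22 lysosome and autophagy genes 3, 3 and 6 were higher and 0, 6 and 0 lower; SQSTM1, the autophagy receptor p62, had 0.70 (SE 0.24), -0.57 (SE 0.11) and 0.87 (SE 0.06) in the authors' deposited tables, each called. Of 22 glycolysis and hypoxia genes 3, 4 and 2 were higher and 0, 13 and 8 lower. Of 19 PRC1 subunits 4, 7 and 3 were higher and 1, 4 and 0 lower; RNF2, the catalytic E3 subunit, had 1.10 (SE 0.26), 1.05 (SE 0.18) and -0.00 (SE 0.09) in the authors' deposited tables. Of 11 BCL2 family genes 5, 4 and 3 were higher and 0, 2 and 2 lower; BCL2L1, which encodes BCL-XL, had 0.50 (SE 0.12), 0.58 (SE 0.09) and 0.63 (SE 0.21) in the authors' deposited tables, called in each. Of 11 clock genes 2, 6 and 1 were higher and 2, 0 and 0 lower; PER1 had -3.83 (SE 0.47) in HepG2 against -0.08 (SE 0.38) and -0.11 (SE 0.16) in Huh7 and WEHI-231 in the authors' deposited tables. Of 15 interferon and MHC class I genes 0, 2 and 0 were higher and 3, 4 and 3 lower. Of 15 G1 cyclin and CDK inhibitor genes 1, 4 and 0 were higher and 2, 7 and 7 lower; CDKN2C, which encodes p18, had -1.17 (SE 0.33), -2.74 (SE 0.22) and 0.02 (SE 0.13) in the authors' deposited tables. Of 9 tubulins 2, 2 and 2 were higher and 3, 4 and 2 lower, and TUBA1A was lower in HepG2 (-1.19, SE 0.23) and higher in Huh7 (0.98, SE 0.14) in the authors' deposited tables. Of 5 cholesterol efflux genes 1, 1 and 1 were higher and 3, 2 and 0 lower.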
